A study of Homo sapiens with 4 samples.

Results

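A group of 8 zinc finger genes flanks the centromere of human chromosome 10. ZNF248, ZNF25, ZNF33A and ZNF37A lie on the short arm and ZNF33B, ZNF239, ZNF485 and ZNF32 on the long arm. They were taken as a list by symbol and position. ZNF487, a zinc finger gene between ZNF33B and ZNF239, was not on it or in the comparison of the arms, and is given as a neighbour. The listed genes are 8 of 20163 protein-coding genes and 8 of 566 zinc finger genes defined by symbol. Histone H4 trimethylated at lysine 20 (H4K20me3) was mapped over them by ChIP-seq, that is sequencing of chromatin pulled down with an antibody to the mark, in IMR90 fibroblasts, a normal human lung line that stops dividing after long culture. Proliferating cells (PRO) were taken at population doubling 32 and replicative senescent cells (RS) at population doubling 86, with no transgene or drug in either group, and both were grown in low oxygen. Each group held 2 samples, 1 for each of 2 rabbit monoclonal antibodies, from Millipore and Cell Signaling Technology. The authors kept what the peaks of both antibodies shared as 1 list per group, so sequence called with 1 antibody alone is absent. The study reports that the peaks of the antibodies overlapped far more in RS than in PRO cells. How much this shortens the PRO list relative to the RS list was not tested. A DiffBind list held regions that differed between the groups.

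Each group was thus a single list of positions without read depth, and neither error nor p-value can be attached to a difference between the states. Both states came from 1 cell line, and a peak list cannot tell a mark present in more cells from a mark that is denser in each cell. The lists hold no expression values, so the identity of the fibroblasts was not checked against markers. The DiffBind list gives no direction of change and holds fewer regions than the study describes. The study reports that nearly all of its differential regions were higher in RS cells. In all, the PRO list held 2836 peaks, the RS list 35535 and the DiffBind list 18711 regions.

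Proteins of the C2H2 zinc finger family bind DNA through tandem fingers, each a short fold around a zinc ion, and the fingers of 1 protein are usually encoded together in the last coding exon. Many members also carry a KRAB domain, which recruits TRIM28. TRIM28 in turn brings SETDB1, which trimethylates lysine 9 of histone H3, and H4K20me3 is laid down at such chromatin by the SUV420H enzymes. Finger-coding exons are themselves known places of this heterochromatin in several human cell types. ZNF248, ZNF25, ZNF33A, ZNF37A, ZNF33B and ZNF485 encode KRAB proteins, whereas ZNF239 and ZNF32 encode finger proteins without that domain. ZNF33A and ZNF33B are copies of each other on opposite sides of the centromere, and ZNF37A has a pseudogene copy, ZNF37BP, on the long arm.

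Several results below turn on the DNA that encodes the fingers. Stretches of 168 bases from the arrays of 5 genes are shown first, 5′ to 3′ on the coding strand, from the GRCh37 sequence that shares its coordinates with hg19. Each spans 2 finger units of 28 codons. Capitals mark the motif ACNGGNGANAANCC, the back-translation of the commonest linker between neighbouring fingers (45 of 79 linkers in the 8 genes). ZNF25 and ZNF33B, whose finger arrays held no RS base, are not among these 5 genes. Each of the 2 had 8 such motifs in its coding sequence, whereas ZNF32 had 1. All 5 printed stretches lay wholly in RS peaks. They stand at chr10:38120972-38121139 (ZNF248, minus strand), chr10:38407057-38407224 (ZNF37A, plus), chr10:44052575-44052742 (ZNF239, minus), chr10:44112298-44112465 (ZNF485, plus) and chr10:44139918-44140085 (ZNF32, minus).
ZNF248: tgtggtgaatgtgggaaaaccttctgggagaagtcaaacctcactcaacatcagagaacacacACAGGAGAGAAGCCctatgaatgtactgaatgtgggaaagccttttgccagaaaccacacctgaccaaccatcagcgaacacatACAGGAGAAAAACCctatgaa
ZNF37A: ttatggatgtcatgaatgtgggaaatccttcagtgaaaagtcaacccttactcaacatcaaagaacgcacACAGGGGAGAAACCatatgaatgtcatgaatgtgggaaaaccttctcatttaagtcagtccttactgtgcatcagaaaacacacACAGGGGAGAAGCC
ZNF239: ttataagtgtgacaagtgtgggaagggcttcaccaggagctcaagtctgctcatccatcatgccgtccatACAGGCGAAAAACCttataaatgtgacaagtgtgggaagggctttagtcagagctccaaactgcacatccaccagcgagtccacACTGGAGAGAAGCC
ZNF485: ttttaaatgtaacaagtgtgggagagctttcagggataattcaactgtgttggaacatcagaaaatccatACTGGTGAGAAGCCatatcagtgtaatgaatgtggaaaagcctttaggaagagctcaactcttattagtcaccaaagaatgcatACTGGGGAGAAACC
ZNF32: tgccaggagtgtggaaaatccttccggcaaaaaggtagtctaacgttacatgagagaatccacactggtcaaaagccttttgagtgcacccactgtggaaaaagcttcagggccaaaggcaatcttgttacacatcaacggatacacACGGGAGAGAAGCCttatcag

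The motif was searched on both strands in windows of 200 bases. It stood in 19 of 187 windows (10.2%) of the RS peaks at the 8 genes, in 15 of 1370 windows (1.09%) of the same gene bodies outside RS peaks, in 1095 of 190316 windows (0.575%) of all RS peaks and in 191 of 656551 windows (0.0291%) of chromosome 10. The share was 12 of 144 windows at the short-arm genes (8.33%) and 7 of 43 at the long-arm genes (16.3%). The motif follows from the coding sequence of the fingers, and these shares are a description.

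To ask how far H4K20me3 covers these genes in each state, the bases of each gene body that lay in a list were counted. RS peaks touched all 8 genes, and together they covered 36.7 of 318 kb, or 11.5% of the gene-body bases. In comparison, 21.0% of all protein-coding genes and 64.5% of zinc finger genes were touched by an RS peak. PRO peaks touched 1 of the 8 genes and covered 0.252% of the bases, against a background of 3.97% of protein-coding genes and 29.9% of zinc finger genes touched. DiffBind regions touched 6 of the 8 genes and covered 12.9% of the bases, whereas 18.3% of protein-coding genes and 55.8% of zinc finger genes were touched. ZNF25 and ZNF239 were the 2 genes without a DiffBind base. The coverage depended on the summary and on whether regions with a repeated window were kept. A region was left out whole if any of its 75-base windows is found elsewhere in the genome, so 1 such window removes a long region. Without these regions the coverage was 6.02% for RS, 3.73% for DiffBind and 0% for PRO. As a mean over the 8 genes it was 16.9%, 22.8% and 0.872%. With regions of at least 1000 bp, RS coverage was 7.32% and PRO coverage 0%.

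**Figure D1:**
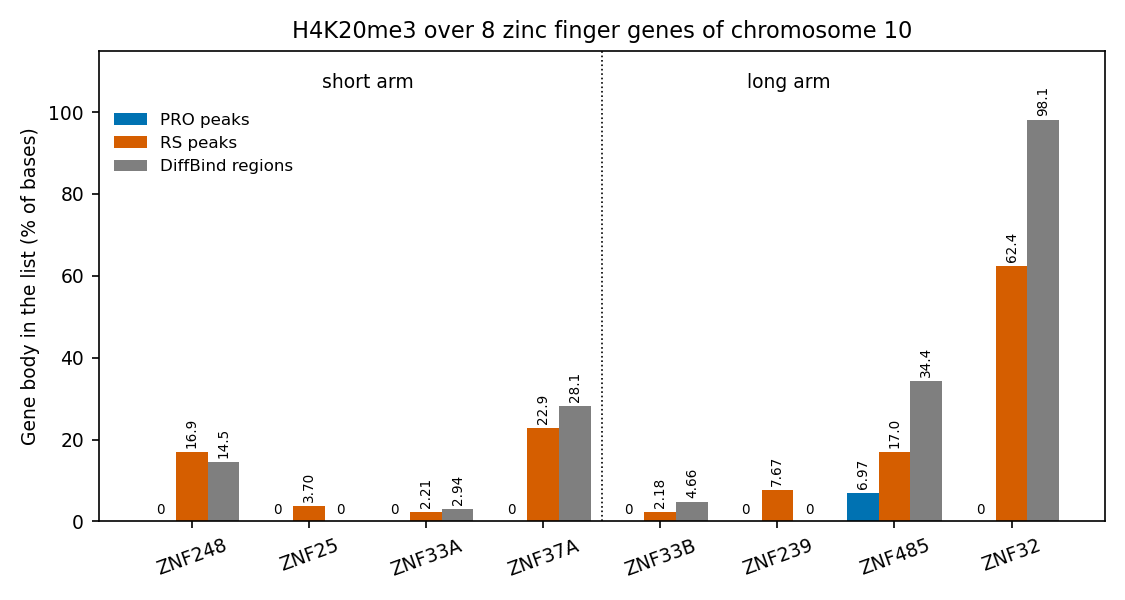
Bars give the percentage of the bases of each gene body in PRO peaks, RS peaks and DiffBind regions, with 1 list per bar and no error. RS coverage ran from 2.18% of ZNF33B to 62.4% of ZNF32, and a PRO bar above 0 is seen for ZNF485 (6.97%).

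The fraction of each gene covered by RS peaks differed widely among the 8 genes. ZNF32 (ENSG00000169740.14, chr10:44139308-44144329), which encodes a short protein with 6 fingers, had 62.4% of its 5.02 kb in 4 RS peaks and 98.1% in DiffBind regions, with no PRO base. ZNF37A (ENSG00000075407.19, chr10:38383262-38439221) followed with 22.9% of 56.0 kb in 14 RS peaks and 28.1% in DiffBind regions. ZNF485 (ENSG00000198298.13, chr10:44101867-44113352) had 17.0% of 11.5 kb in 2 RS peaks, 34.4% in DiffBind regions and 6.97% in a PRO peak.

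ZNF248 (ENSG00000198105.16, chr10:38065454-38147034), the longest of the genes, had 16.9% of 81.6 kb in 15 RS peaks and 14.5% in DiffBind regions. ZNF239 (ENSG00000196793.14, chr10:44051792-44070066), whose protein binds DNA and RNA, had 7.67% of 18.3 kb in 1 RS peak. ZNF25 (ENSG00000175395.16, chr10:38238501-38265575) had 3.70% of 27.1 kb in 1 RS peak. The copies ZNF33A (ENSG00000189180.16, chr10:38299578-38354016) and ZNF33B (ENSG00000196693.15, chr10:43069633-43134018) were lowest, at 2.21% of 54.4 kb and 2.18% of 64.4 kb.

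The order of the genes rests on 1 list and has no spread. Peaks are built from windows of 200 bp, which equal 1.74% of the body of ZNF485 and 0.367% of that of ZNF33A. The neighbours ZNF485 and ZNF248, and likewise ZNF33A and ZNF33B, thus differed by less than 1 window of the shorter gene. ZNF32 stood above the next gene, ZNF37A, by far more than the 3.98% that 1 window makes of its body.

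Set among all 566 zinc finger genes, the 8 reached from the upper part of the range to just below its middle. They were not gathered at its top. Their median RS coverage was 12.3%, compared with 11.6% for all zinc finger genes and 0% for all protein-coding genes. At least 10% of the body lay in RS peaks in 4 of the 8 genes, near the background of 51.6% of zinc finger genes and above the 3.79% of protein-coding genes. At least 50% lay in RS peaks in 1 gene, ZNF32, against 18.4% of zinc finger genes and 1.12% of protein-coding genes. ZNF32 ranked 53rd of 565 zinc finger genes of at least 2 kb and 82nd of 19011 such protein-coding genes. ZNF33B ranked 340th and 1655th, respectively.

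**Figure D2:**
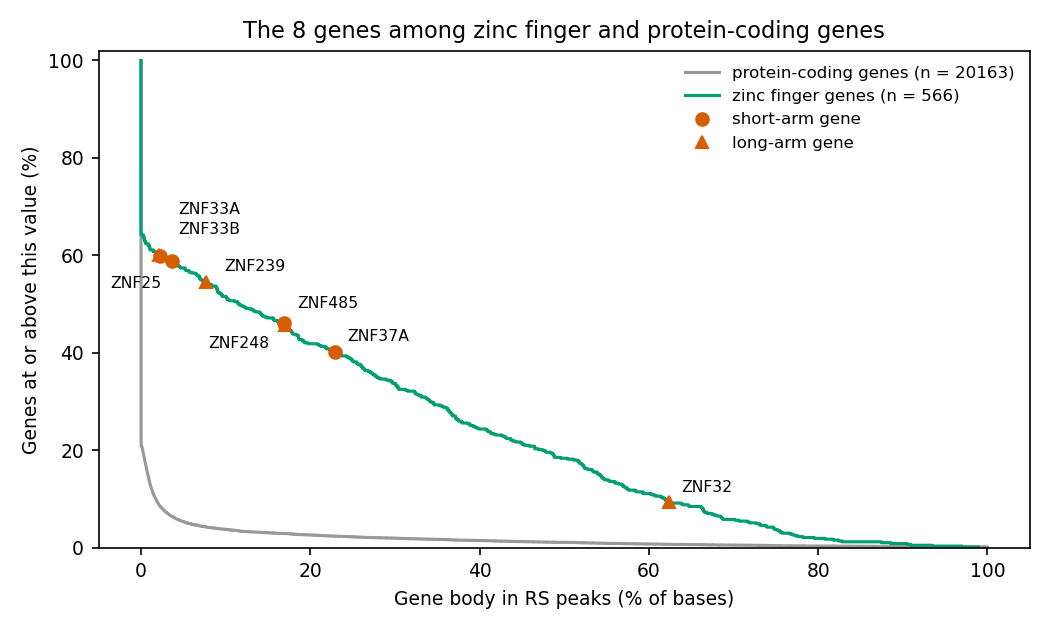
The curves give the percentage of genes (y axis) with at least a given percentage of the gene body in RS peaks (x axis), for 566 zinc finger genes and 20163 protein-coding genes. The 8 genes are marked on the zinc finger curve and reach from ZNF33B at 2.18% to ZNF32 at 62.4%.

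It was next asked which part of the gene carries the mark, using the canonical transcript of each gene, with the exon that holds the stop codon taken whole. RS peaks lay over the last coding exon in 7 of the 8 genes, compared with 52.5% of zinc finger genes and 3.65% of protein-coding genes. Over the 8 genes together, 36.1% of the bases of last coding exons were in RS peaks, 23.5% of those of other exons and 7.48% of those of introns. The RS bases of other exons came from ZNF37A (688 bases) and ZNF32 (219 bases) alone. The share of the last coding exon was near that of the family as a whole, 32% over 562 zinc finger genes. In the family, RS peaks held 15.6% of the rest of the body. In the 8 genes, introns (7.48%) and the part outside the canonical transcript (11.0%) were below that value, and other exons (23.5%) above it. The last coding exon was covered at 96.2% in ZNF485, 85.2% in ZNF32, 76.6% in ZNF239, 47.0% in ZNF37A, 46.0% in ZNF248, 21.0% in ZNF33A and 14.3% in ZNF33B. ZNF25 had no RS base there. DiffBind regions lay over the last coding exon in 6 of the 8 genes, all but ZNF25 and ZNF239, against 44.0% of zinc finger genes and 3.62% of protein-coding genes. PRO peaks lay there in 0 of the 8, against 7.83% and 0.573%, respectively.

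Within that exon, the stretch from the first to the last finger was then examined. Fingers were counted on the translated coding sequence, and every finger of the 8 genes fell in the last coding exon. The array of ZNF485 (11 fingers, chr10:44111885-44112787) and that of ZNF32 (6 fingers, chr10:44139603-44140085) lay wholly in RS peaks. RS peaks held 95.6% of the array of ZNF239 (9 fingers, chr10:44052169-44052903) and 95.1% of that of ZNF248 (7 fingers, chr10:38120573-38121139). The share was 88.1% for ZNF33A (16 fingers, chr10:38344043-38345365) and 73.4% for ZNF37A (10 fingers, chr10:38406896-38407714). Counted by finger, RS peaks held 6 of 7 whole fingers in ZNF248, 8 of 9 in ZNF239, 14 of 16 in ZNF33A and 6 of 10 in ZNF37A.

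The arrays of ZNF33B and ZNF25 held no RS base. In ZNF33B (16 fingers, chr10:43088085-43089407) the nearest RS peak ended 683 bp away, and a DiffBind region covered 99.5% of the array. In ZNF25 (12 fingers, chr10:38241082-38242068) the nearest RS peak lay 11332 bp away and no DiffBind base was found in the array. DiffBind regions covered all of the array in ZNF248, ZNF33A, ZNF37A, ZNF485 and ZNF32, and none of it in ZNF239. No PRO base lay in any of the 8 arrays.

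**Figure D3:**
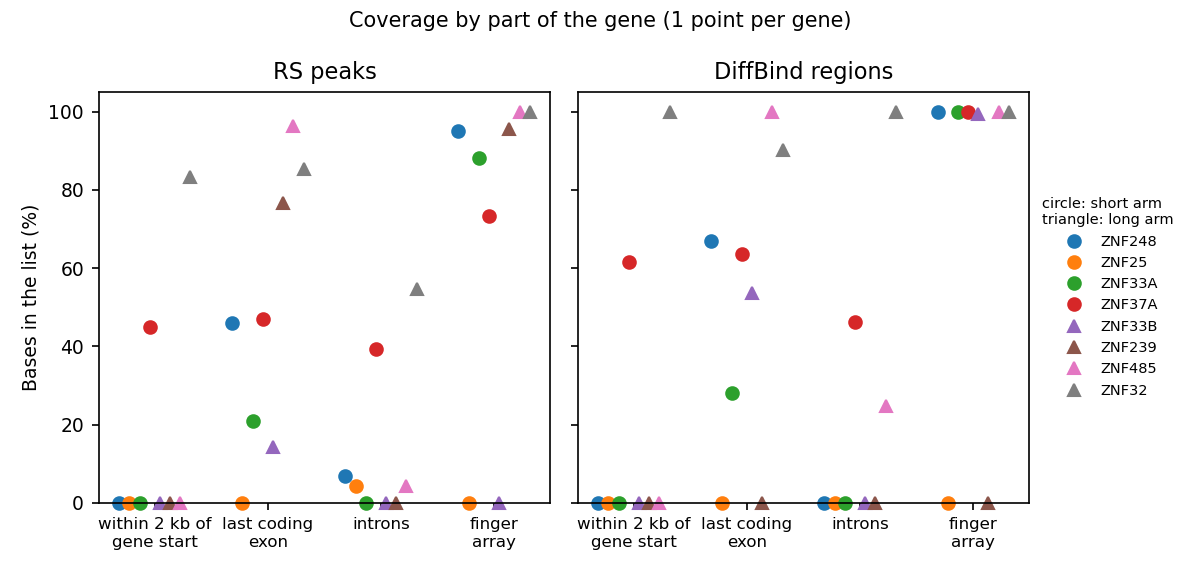
Each point is 1 gene and gives the percentage of the bases of a gene part in RS peaks (left) or DiffBind regions (right), with circles for short-arm and triangles for long-arm genes. Finger arrays were covered at 73.4% or more by RS peaks in 6 genes and at 0% in ZNF25 and ZNF33B, whereas most genes sit at 0% around the gene start.

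**Figure D4:**
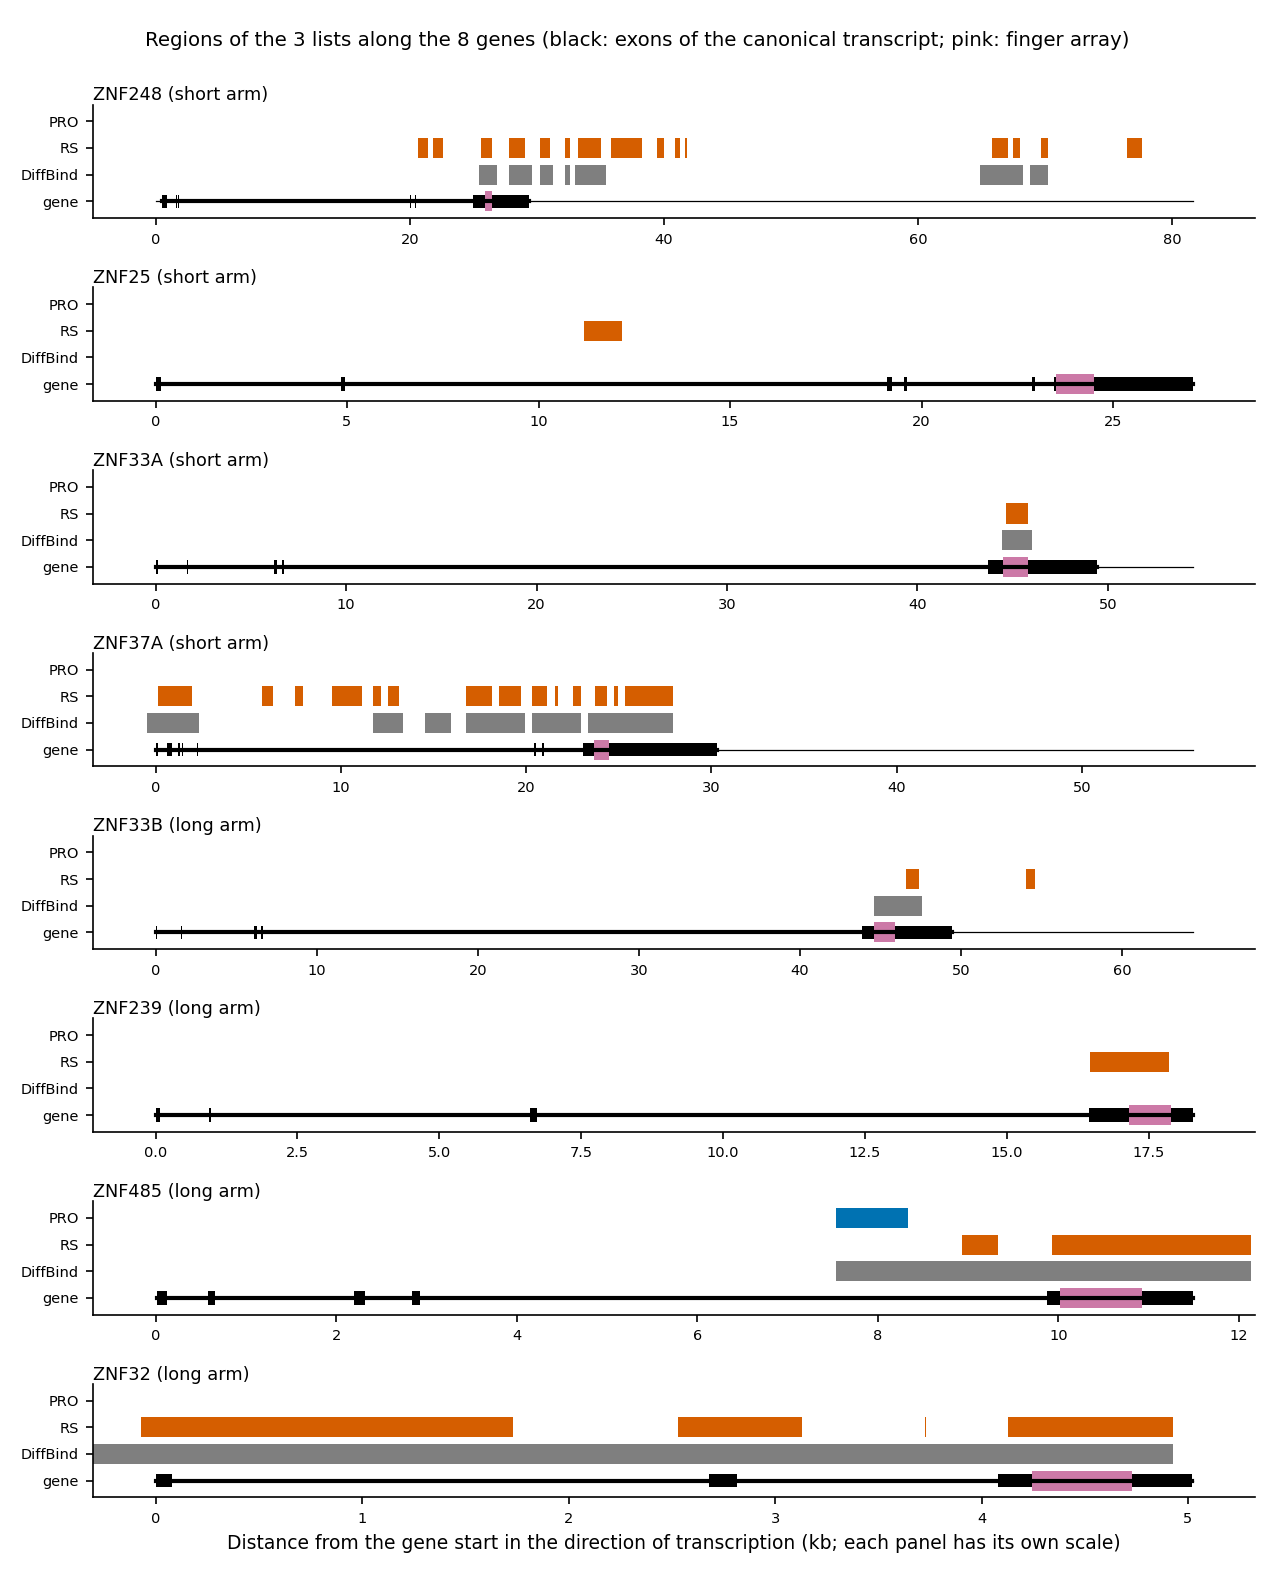
Each panel shows the regions of the 3 lists along 1 gene by distance from the gene start in kb, with exons of the canonical transcript in black, the rest of the annotated gene as a thin line and the finger array in pink. ZNF248 and ZNF37A carry 15 and 14 RS peaks, ZNF25, ZNF33A and ZNF239 carry 1 each, and the PRO peak of ZNF485 lies beside its RS peaks.

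The peaks around the gene starts were fewer. RS bases lay within 2000 bp of the start of ZNF37A and ZNF32, that is 2 of the 8 genes, compared with 29.4% of zinc finger genes and 4.34% of protein-coding genes. An RS peak of 1801 bp spanned from 72 bp before to 1729 bp after the start of ZNF32, and covered 83.2% of the window around the start with its neighbours. A further RS peak of 1801 bp ran from 139 bp to 1940 bp after the start of ZNF37A, and the window was covered at 45.0%. DiffBind regions began farther upstream, at position -2272 bp from the start of ZNF32 and -461 bp from that of ZNF37A. These were the 2 of the 8 genes with DiffBind bases around the start, against 16.9% of zinc finger genes and 3.54% of protein-coding genes. No PRO base lay there in the 8 genes, against 14.9% and 1.96%. The 250 bases before each start are shown because both lay wholly in DiffBind regions, and capitals mark the 72 bases of ZNF32 (chr10:44144330-44144579, minus strand) that were in the RS peak. None of the 250 bases of ZNF37A (chr10:38383012-38383261, plus strand) was.
ZNF32: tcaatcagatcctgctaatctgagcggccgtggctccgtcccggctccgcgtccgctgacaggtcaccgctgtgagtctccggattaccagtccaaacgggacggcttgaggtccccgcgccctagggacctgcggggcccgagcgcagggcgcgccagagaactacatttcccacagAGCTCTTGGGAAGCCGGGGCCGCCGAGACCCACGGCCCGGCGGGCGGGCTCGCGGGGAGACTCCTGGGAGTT
ZNF37A: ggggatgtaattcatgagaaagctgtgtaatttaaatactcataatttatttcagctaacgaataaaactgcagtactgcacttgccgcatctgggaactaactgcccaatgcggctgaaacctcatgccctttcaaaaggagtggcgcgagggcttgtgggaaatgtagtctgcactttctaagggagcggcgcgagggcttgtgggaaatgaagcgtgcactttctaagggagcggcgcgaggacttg

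The stretch before ZNF32 was 68.8% G and C and held 27 CG pairs, whereas that before ZNF37A was 48.8% G and C and held 12.

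Both genes with many RS peaks were on the short arm, and their peaks lay differently. In ZNF37A the 14 peaks ran from the gene start to 27.9 kb into the gene, and 68.1% of the RS bases were intronic and 26.6% in the last coding exon. In ZNF248, 11 of the 15 peaks lay between 20.6 and 41.8 kb from the gene start, and the other 4 between 65.8 and 77.6 kb. The canonical transcript of ZNF248 ends within the first group, and 73.9% of its RS bases lay beyond it, in the part of the gene reached by longer transcripts. The longest single peaks were 2601 bp in ZNF37A and 2401 bp in ZNF248.

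The genes with 1 or 2 RS peaks carried them in different places. The peak of ZNF239 (chr10:44052201-44053601, 1401 bp) and that of ZNF33A (chr10:38344201-38345401, 1201 bp) lay wholly in the last coding exon. The peak of ZNF25 (chr10:38253401-38254401, 1001 bp) was intronic. In ZNF33B, 1 peak (chr10:43086601-43087401, 801 bp) lay in the last coding exon behind the fingers, and the other (chr10:43079401-43080001, 601 bp) beyond the end of the canonical transcript.

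ZNF485 was the single gene of the 8 with a PRO peak (chr10:44109401-44110201, 801 bp), which lay in its last intron. This PRO peak shared no base with an RS peak, the nearest of which was 599 bp away. A DiffBind region of 4601 bp held the PRO peak and both RS peaks of the gene. Elsewhere the nearest PRO peak was 20.9 kb from ZNF248, 29.1 kb from ZNF32 and 39.3 kb from ZNF239, and from 194 to 385 kb from the remaining 4 genes.

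The RS peaks and the DiffBind regions were then compared within each gene. All RS bases of ZNF33A, ZNF485 and ZNF32 lay in DiffBind regions. The share was 79.7% in ZNF37A, 57.1% in ZNF33B and 53.6% in ZNF248, and it was 0% in ZNF25 and ZNF239. In ZNF32, 4 RS peaks, 1 of them a single base, lay in 1 DiffBind region of 7201 bp. Conversely, a DiffBind region of ZNF37A (chr10:38397801-38399201) held no RS base. Whether a given DiffBind region rose or fell in RS cells is not recorded in the list, although the study reports a rise for most of its regions.

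The base composition of the peaks was compared with that of the genes. The share of G and C was higher in the RS peaks than over the whole body in each of the 8 genes, but by different amounts. It was 48.0% against 40.2% in ZNF25, 47.3% against 40.2% in ZNF33B, 44.9% against 39.1% in ZNF248 and 44.2% against 39.1% in ZNF37A. In ZNF32 it was 50.6% against 46.5%, and in ZNF239 47.1% against 42.8%. ZNF33A (39.4% against 39.3%) and ZNF485 (41.0% against 40.9%) showed nearly equal values. The part of base composition in the detection of peaks was not tested.

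To compare the arms, the bases of the 4 genes of each arm were pooled. RS peaks covered 28.8 of 219 kb (13.2%) on the short arm and 7.89 of 99.2 kb (7.95%) on the long arm, a difference of 5.21 percentage points. The direction depended on the summary. The mean over genes was 11.4% on the short arm and 22.3% on the long arm, a difference of -10.9 points, and the medians were 10.3% and 12.3%. In addition, without regions that hold a repeated 75-base window the pooled values were 6.03% and 5.98%, and the difference was 0.0485 points. With gene bodies extended by 2000 bp on each side it was 3.33 points. The ranges overlapped, at 2.21% to 22.9% for the short-arm genes and 2.18% to 62.4% for the long-arm genes. The difference between the arms was not tested, since genes of 1 list are not replicates.

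By list, DiffBind regions covered 13.3% of the short-arm and 12.0% of the long-arm gene bodies, and PRO peaks 0% and 0.808%. RS peaks numbered 31 on the short-arm genes and 9 on the long-arm genes. Last coding exons were covered by RS peaks at 31.6% on the short arm and 45.7% on the long arm, and introns at 10.1% and 3.44%, respectively.

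ZNF33A and ZNF33B allow the same sequence to be compared on both arms. Their finger arrays, of 1323 bp each, differed at 47 positions and were 96.4% identical, with a longest identical run of 113 bp. A stretch of 150 bases with 4 differences, in capitals, is shown 5′ to 3′ on the coding strand. It lay in RS and DiffBind regions in ZNF33A (chr10:38344501-38344650, plus strand), but in a DiffBind region alone in ZNF33B (chr10:43088800-43088949, minus strand).
ZNF33A: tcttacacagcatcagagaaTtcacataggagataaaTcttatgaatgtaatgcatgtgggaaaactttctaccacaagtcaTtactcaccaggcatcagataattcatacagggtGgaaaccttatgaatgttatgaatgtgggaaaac
ZNF33B: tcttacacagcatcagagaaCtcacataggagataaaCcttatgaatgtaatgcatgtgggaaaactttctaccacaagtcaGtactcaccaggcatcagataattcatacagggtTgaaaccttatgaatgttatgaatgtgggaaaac

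The counterpart of the ZNF33A peak in ZNF33B, 96.5% identical over its whole length, had 0 of 1202 bases in RS peaks and all of them in a DiffBind region. Conversely, the counterpart in ZNF33A of the ZNF33B peak behind the fingers, 92.3% identical, had no base in RS peaks or DiffBind regions. The RS peaks of the copies thus did not fall on matching sequence. Reads from stretches that are identical in both copies can be placed at either. In the ZNF33A peak, 24 of 1127 windows of 75 bases (2.13%) were found elsewhere in the genome. In the ZNF33B peaks it was 0 of 1254. The part of read placement in the peaks was not tested.

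ZNF37A and its copy ZNF37BP (chr10:43008958-43048280) were compared likewise. RS peaks covered 27.0% of ZNF37BP and DiffBind regions 25.9%, with no PRO base, compared with 22.9% and 28.1% of ZNF37A. Of the 14 RS peaks of ZNF37A, 11 had a copy elsewhere of at least 90% identity over at least 50% of their length, and for 9 the best copy lay in ZNF37BP, at 90.3% to 94.0% identity. RS peaks were found at 4 of these 9 counterparts and held 42.6% of their bases. The 4 peaks of ZNF37A lay from 21.5 to 27.9 kb into the gene, near the end of its canonical transcript, 3 of them in the last coding exon, and they included the longest, with its counterpart at chr10:43011416-43014012.

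Exact repeats were counted as well. Of the 40 RS peaks at the 8 genes, 17 held at least 1 window of 75 bases found elsewhere in the genome, although such windows made up 2.19% of all windows in these peaks. The share was highest in ZNF485 (9.01%, against 0.657% over the whole gene) and ZNF37A (3.41% against 2.20%). It was 2.13% against 2.02% in ZNF33A and 0.858% against 3.03% in ZNF248. In ZNF25, ZNF33B, ZNF239 and ZNF32 it was 0%, against 0.756%, 1.83%, 0.291% and 0% over the whole genes. How many of all RS peaks hold such a window was not counted. Without the peaks that hold such a window, ZNF33A and ZNF485 had no RS peak left, 6 of the 8 genes were touched and RS coverage fell to 6.02%.

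The surroundings of the genes were examined for the same marks, out to 500 kb beyond the outermost genes of each arm. Outside the 8 genes, RS peaks covered 2.50% of this span on the short arm and 5.56% on the long arm. Both spans reach into the 500 kb nearest to the run of unknown bases at the centromere. RS peaks covered 5.86% of that band on the short arm and 29.9% on the long arm. From 500 kb to 2 Mb, with the 8 genes included, they covered 3.38% and 3.76%. Of 2 other protein-coding genes on the short-arm side, PLD5P1 had 14217 RS bases, but it overlaps ZNF37A and 1403 of them lay outside that gene. Of 7 on the long-arm side, 3 had RS bases, namely the zinc finger gene ZNF487 (chr10:43932289-43978629, 5.24%), RASGEF1A, a Ras exchange factor gene (1.93%), and BMS1, a ribosome assembly gene (0.385%). None of these 9 genes had a PRO base. Among zinc finger pseudogenes, ZNF33CP had 39.1% of its 2030 bp in DiffBind regions and no RS base, and ZNF33BP1 and ZNF37CP had no base in any list.

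**Figure D5:**
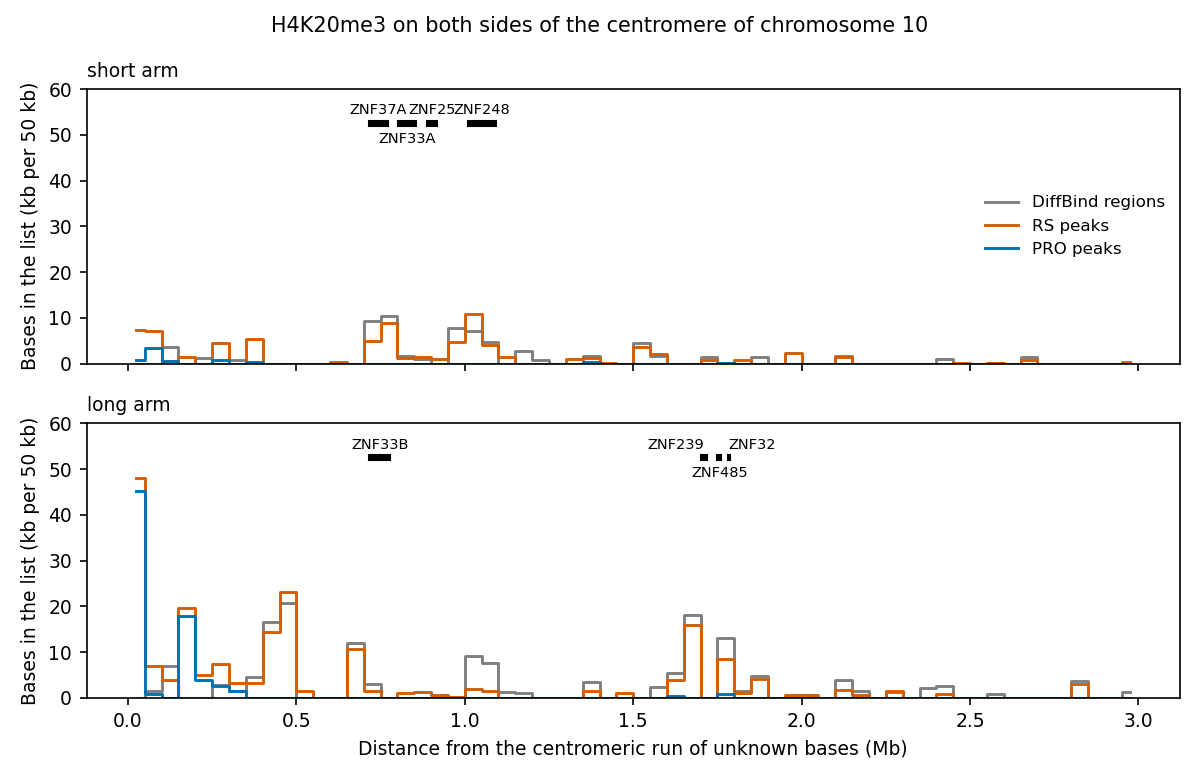
Lines give the bases in each list per 50 kb (y axis, kb) against the distance from the centromeric run of unknown bases (x axis, Mb) on each arm, with the 8 genes as black bars. The highest RS values, 48002 and 23078 bases per 50 kb, lie on the long arm within 500 kb of the run, where none of the 8 genes lies and where most PRO bases are found, and lower rises are seen at ZNF37A and ZNF248 and near ZNF239, ZNF485 and ZNF32.

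By distance, ZNF37A and ZNF33B were equally near to the run of unknown bases that stands for the centromere, at 716 and 715 kb, and had RS coverage of 22.9% and 2.18%. ZNF33A followed at 801 kb, ZNF25 at 889 kb and ZNF248 at 1008 kb. ZNF239, ZNF485 and ZNF32 were farther away, from 1697 to 1784 kb.

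Other gene lists served for comparison. Of 9 further zinc finger genes on chromosome 10, 5 had RS bases and 0 had at least 10% of the body in RS peaks. The background of all zinc finger genes was 64.5% and 51.6%, respectively. RS coverage of the 9 was 1.47% in pooled bases, in which long genes count most, and 0.284% as a median. They include ZNF487, given above as a neighbour, and a readthrough gene counted beside its parent gene. Of 15 genes that encode the silencing pathway of these proteins, 3 had RS bases, near the background of 21.0% of protein-coding genes. ZNF274, itself a zinc finger gene on chromosome 19, was covered at 93.5% by RS peaks, at 75.8% by DiffBind regions and at 25.6% by PRO peaks, whereas SETDB1 (1.04%) and ATRX (0.285%) were barely touched in RS. TRIM28 and the SUV420H genes KMT5B and KMT5C had no base in any list. The protein-coding genes most like ZNF32 over the 3 percentages, by Euclidean distance, were ZNF101 on chromosome 19 (8.38 points), S100A4 on chromosome 1 (10.2 points) and TBC1D3C on chromosome 17 (10.7 points).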

How the data were processed

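H4K20me3 ChIP-seq of IMR90 cells was used as 3 region lists made from 4 samples. According to the submitters' processing notes and the methods, the authors used Bowtie2 2.1.0 to place single-end reads on hg19, called domains with SICER 1.1 against a histone H4 ChIP and kept, for each condition, what the domains of the 2 antibodies shared. DiffBind 1.8.3 compared the conditions, and the sources name different count models for that step. The deposited lists hold positions in bases, with no score, count or direction. Read depth was not used here.

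Coverage was the number of bases of a gene body inside a list, with GENCODE release 44 mapped to GRCh37, which shares hg19 coordinates on chromosome 10. Ensembl identifiers are printed without the suffix added in that mapping. A finger was 2 cysteines 2 residues apart, 12 residues, then 2 histidines 3 residues apart. Near copies were found with BLAST+ 2.17.0, and the interval arithmetic (Python 3.11.15, NumPy 2.4.6) was tested on simulated data. No test was made, because each group is 1 list shared by both antibodies.

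The 8 genes, the gene lists and the comparisons were chosen with earlier results of these data known. Named besides the 8 were protein-coding neighbours with RS or PRO bases and zinc finger pseudogenes within 500 kb, other chromosome 10 zinc finger genes with at least 10% of the body in RS peaks, silencing-pathway genes with at least 1%, and the 3 protein-coding genes of at least 2 kb nearest to ZNF32 over the 3 lists. ATRX, TRIM28, KMT5B and KMT5C were added after their values were seen. Alternatives covered peak length, merging, gene span, repeated sequence and single genes.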

Additional observations from a re-analysis of the deposited data

How the results depend on the processing

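Of 50 values computed under alternatives for 5 results, 36 stayed within the range allowed for their result, 13 moved beyond it and 1 changed direction. The range was the binomial interval over windows of 200 bp, or 1.5 times for the count of genes. Neighbouring windows of 1 peak are not independent, so this range is a rule for sorting the alternatives and not an error. The alternatives with a mean over genes or the span of the canonical transcript were chosen after seeing the data. The difference between short-arm and long-arm genes, 5.21 percentage points in pooled bases, turned to -10.9 points as a mean over genes, in which ZNF32 (5.02 kb, 62.4% covered) counts as much as each longer gene, and was 0.0485 points without regions that hold a repeated window and 3.33 points with gene bodies extended by 2000 bp. RS coverage of the 8 genes, 11.5%, was 7.32% with regions of at least 1000 bp, 14.9% after merging within 1000 bp, 6.02% without regions that hold a repeated window, 16.9% as a mean over genes and 9.68% without ZNF248. DiffBind coverage, 12.9%, was 3.73% without regions that hold a repeated window, 22.8% as a mean over genes and 9.64% without ZNF37A. PRO coverage, 0.252%, rests on 1 peak in ZNF485 and was 0 with regions of at least 1000 bp, without regions that hold a repeated window and without ZNF485, and 0.872% as a mean over genes. The number of genes touched by RS peaks ranged from 6 to 8.

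No paired analysis was possible because the lists give the positions shared by both antibodies for PRO and RS and nothing for a single antibody. Leave-one-out over the antibodies was therefore not run. The lists give no read depth, so its effect on peak length and number was not tested. The study gives unlike shares of aligned and duplicate reads for the PRO and RS libraries, and their effect on the lists was not tested either.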

Other observations

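The sequence next to the centromere differed from the genes in its PRO coverage. In the nearest 500 kb of the long arm, of which 450 kb are sequenced, PRO peaks covered 71.8 kb (16.0%), RS peaks 135 kb (29.9%) and DiffBind regions 54.6 kb (12.1%). The 50 kb nearest to the centromere on that arm held 45202 of the PRO bases, 48002 of the RS bases and 0 of the DiffBind bases. On the short arm the nearest 500 kb held 6.01 kb of PRO bases (1.34%) and 26.4 kb of RS bases (5.86%). From 500 kb to 2 Mb, where the 8 genes lie, PRO coverage was 0.0402% on the short arm and 0.0801% on the long arm, and RS coverage was 3.38% and 3.76%. These bands were chosen after the profile by distance had been seen, and no test was made of their differences. Repeated sequence was not counted in the nearest 500 kb of either arm.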
